A study of Mus musculus with 10 samples.

Results

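Kidneys deficient in Pkd2 as well as miR-21 were compared with wild-type kidneys across every row of the authors' comparison that carries a gene name, which is 23276 of 30431 rows. The remaining 7155 rows are assembled loci without a gene name. Whole mouse kidneys, taken on postnatal day 21, gave the RNA. The double mutants (DM, 3 libraries) carried Pkhd1Cre, floxed Pkd2 on both alleles (Pkd2 F/F) and the miR-21null genotype, and the controls (WT, 4 libraries) are labelled only as wild type. A group with Pkhd1Cre; Pkd2 F/F and intact miR-21 (SM, 3 libraries) enters where a double-mutant value is set against loss of Pkd2 alone. Pkhd1Cre uses regulatory sequence of Pkhd1, a gene of collecting duct cells, whereas the RNA comes from all cells of the organ, so each value mixes recombined and other cells. A group with the miR-21null genotype and intact Pkd2 was not analysed here, so the shares of the Pkd2 and miR-21 genotypes in a difference between DM and WT cannot be told apart from this comparison. Neither can those of the Cre driver.

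Every fold change and every p, raw or adjusted, comes from the authors' deposited tables, from edgeR's likelihood ratio test over all rows. A gene is said to rise or fall where the authors' adjusted p is below 0.05. The tables hold no value per library. The value after ± is therefore the standard error implied by the test (implied SE), and group levels in CPM, counts scaled to the size of the library, were computed from the authors' deposited average and fold changes, without an error. The depth of the libraries is unknown. Rows with a test score of 0, 4070 in all, share the level of the Mir21 row, 0.0514 CPM, and fitted levels at or below it measure nothing, nor do folds against them.

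Polycystin-2, the product of Pkd2, is a cation channel of the primary cilium and endoplasmic reticulum, and its loss from tubule cells lets tubules widen into cysts. Cyst growth is known to bring dedifferentiation and proliferation of the epithelium, macrophage infiltration and interstitial fibrosis. miR-21 is a microRNA that is induced in injured and cystic kidneys and binds mRNAs through its seed, the stretch of bases near its 5′ end that pairs with targets.

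The mature strands missing in DM are shown because they are the item removed from the second locus. They come from RefSeq (GRCm38.p6), run 5′ to 3′ on the minus strand, and carry the seed, bases 2 to 8, in capitals. The 5p strand is at chr11:86584120-86584141 and the 3p strand at chr11:86584082-86584103.
mmu-miR-21a-5p: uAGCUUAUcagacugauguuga
mmu-miR-21a-3p: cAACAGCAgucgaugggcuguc
The hairpin lies within the transcription unit of Vmp1, a gene of autophagosome formation. Vmp1 rose by 1.33 ± 0.30 (adjusted p = 2.14e-04) in the authors' deposited table, from 102 CPM in WT and 122.1 CPM in SM to 256 CPM in DM. Against SM, the Vmp1 difference of 1.07 ± 0.32 did not pass in the authors' deposited table (adjusted p = 0.32). Within 5 Mb on either side of the hairpin, 21 of 146 named rows rose and 18 fell, 26.7% in all, where 14.6% of all named rows passed in DM against WT. The Mir21 row itself stood at the lowest level in every group and does not check the genotype. Pkd2 differed by -0.49 ± 0.20 and did not pass (adjusted p = 0.0838) in the authors' deposited table, with computed levels of 239 CPM in WT, 180 CPM in SM and 170 CPM in DM. Pkhd1, the gene whose sequence drives the Cre, rose by 0.71 ± 0.22 (adjusted p = 0.0133) in the authors' deposited table.

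Of the named rows, 3389 passed between DM and WT by the authors' deposited table, 14.6% of those tested. The rows that rose numbered 2013 (8.65%) and those that fell 1376 (5.91%). Among the 14037 named rows averaging 1 CPM or more, 11.7% rose and 8.43% fell. Together this was 20.2% of those rows. Of the rows without a gene name 9.94% passed. The median log2 fold change was 1.48 among rows that rose and -0.97 among rows that fell, and at least a 2-fold change was reached by 1507 and 661 of them. Rises were most frequent at 1 to 10 CPM, where 20.8% of rows rose and 6.09% fell. Falls were most frequent above 100 CPM, where 19% fell and 6.92% rose. Protein-coding genes passed in 16% of 20321 rows, and long noncoding RNA genes in 5.85% of 1708.

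**Figure D1:**
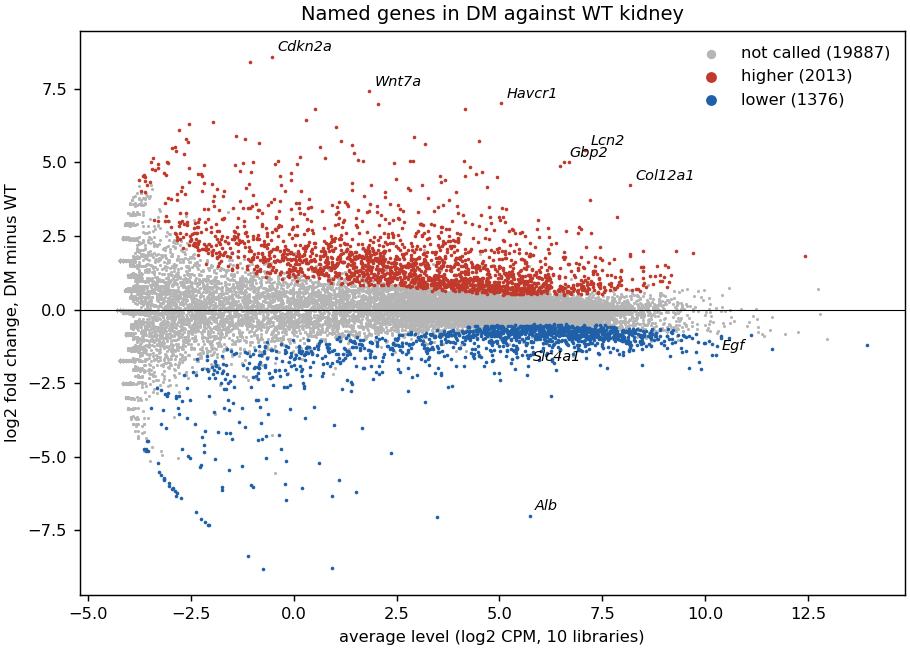
Each dot is 1 named row, placed by its average level over 10 libraries (x axis, log2 CPM) and its log2 fold change in DM against WT (y axis), both from the authors' deposited table. The 2013 rows that rose are red and the 1376 that fell are blue, with rows not called in grey. Rises spread over low and middle levels, and most falls lie in a shallow band at high levels.

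**Figure D2:**
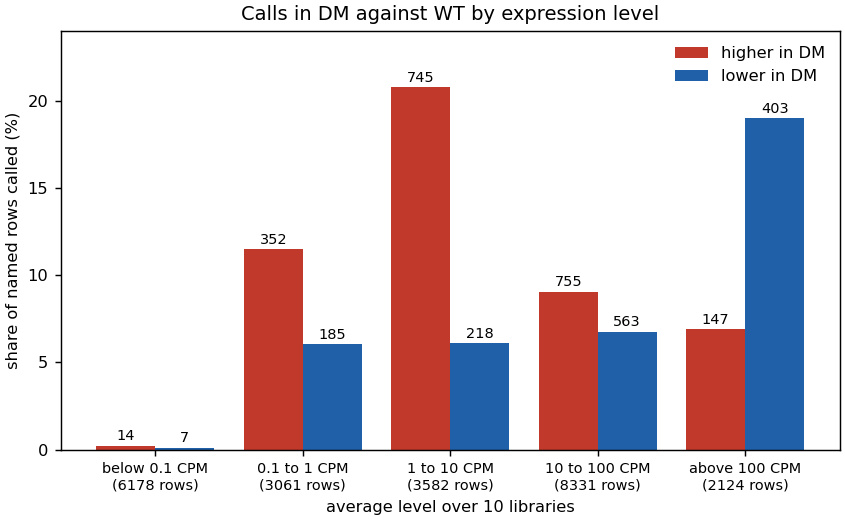
Bars give the share of named rows that rose (red) or fell (blue) in DM against WT (y axis, percent) in 5 ranges of average level (x axis, CPM), with the number of rows above each bar. The share that rose peaks at 20.8% between 1 and 10 CPM, and the share that fell reaches 19% above 100 CPM.

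The rises with the highest test scores were mostly of genes at low levels in WT kidney. Il18r1, a chain of the interleukin-18 receptor, rose by 4.61 ± 0.29 (adjusted p = 9.23e-52) in the authors' deposited table, from 1.51 CPM to 36.8 CPM. Col12a1, a collagen that associates with fibrils, went from 22.4 CPM to 420 CPM, and its log2 fold change was 4.23 ± 0.29 in the authors' deposited table. Others in the highest 10 were Lgi2 (4.84), the glycosyltransferase gene B4galnt2 (4.00), Msln, which encodes the surface protein mesothelin (3.21), Megf6 (3.52), the retinaldehyde dehydrogenase gene Aldh1a1 (2.75), Ankrd1 (4.50) and the sodium channel gene Scn8a (3.78), as log2 fold changes in the authors' deposited table. All of these had rises of similar size in SM against WT, between 2.99 for Aldh1a1 and 4.99 for Lgi2, and none passed in DM against SM in the authors' deposited tables. The WT libraries are shared by both comparisons.

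Falls with the highest scores included transport and signalling genes. Slc4a1, the chloride-bicarbonate exchanger AE1 of acid-secreting intercalated cells and red cells, fell by 1.93 ± 0.20 (adjusted p = 6.07e-19) in the authors' deposited table, from 94 CPM to 24.7 CPM. Ppp1r1b, which encodes the phosphatase inhibitor DARPP-32, stood at -2.14 ± 0.25, and Ecm1, a secreted matrix protein gene, at -1.76 ± 0.23 in the authors' deposited table. The others of this set were D630023F18Rik (-2.38), Nccrp1 (-2.02), Fam151a (-2.23), 2310042D19Rik, Lrrc66 (-2.59), Nepn (-2.62) and Macrod2 (-1.40), as log2 fold changes in the authors' deposited table.

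Tubular injury and repair genes rose nearly as a whole. Of 25 measured members, 24 rose and 0 fell, with a median log2 fold change of 1.80 in the authors' deposited table, where the median of all named rows of at least 1 CPM was 0.01. Havcr1, the injury marker KIM-1, went from 0.319 CPM in WT to 41.4 CPM in DM, a log2 fold change of 7.02 ± 0.68 in the authors' deposited table. Lcn2, the iron-carrier-binding protein NGAL, went from 4.59 CPM to 196 CPM (5.42 ± 0.33, in the authors' deposited table). Spp1, the secreted phosphoprotein osteopontin, went from 2124 CPM to 7572 CPM (1.83 ± 0.37, in the authors' deposited table). The member that did not pass was Il24, whose WT level is under that of rows with no signal. In bulk tissue a rise or fall of a gene in each cell and a change in the number of cells that express it cannot be told apart, here and in the groups that follow.

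Among epithelial structure genes, some keratins of simple and of stratified epithelium rose. Of 48 keratin rows 12 rose and 1 fell, 27.1%, where 14.6% of all named rows passed. The other 35 were not called, and the list median was 0.00. Of the 48, 14 had an average of at least 1 CPM. Krt15 and Krt5 had the highest averages among keratins that did not pass. Krt18, the partner of Krt8 in simple epithelia, rose by 2.14 ± 0.21 in the authors' deposited table, from 43 CPM to 189 CPM. Krt19 rose by 2.25 ± 0.25 and Krt8 by 1.10 ± 0.22 in the authors' deposited table. Keratins of stratified epithelium were among the rises at low levels. Krt17 reached 3.04 CPM in DM from a WT level under that of rows with no signal, and Krt4 went from 0.254 CPM to 4.30 CPM (4.08 ± 0.45, in the authors' deposited table). Of 25 claudins, the sealing and pore proteins of tight junctions, 8 rose, led by Cldn6 at 2.17 ± 0.33 and Cldn4 at 1.80 ± 0.21, and the cation pore gene Cldn10 fell by 0.71 ± 0.23 in the authors' deposited table. In all 36% of claudins passed, where 20.2% of named rows of at least 1 CPM did. Among 28 apical adhesion and mucin genes 11 rose and 2 fell. Cdh3, or P-cadherin, rose by 2.14 ± 0.34 and the epithelial transcription factor gene Elf3 by 1.66 ± 0.23 in the authors' deposited table.

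Of 36 regulators of nephron identity 4 rose and 4 fell, 22.2%, near the 20.2% of named rows of at least 1 CPM that passed. Sox4, a factor of kidney progenitors, rose by 1.80 ± 0.22 and Sox11 by 1.31 ± 0.31 in the authors' deposited table. Hnf4a, which encodes a factor of proximal tubule differentiation, fell by 0.78 ± 0.25 in the authors' deposited table. Genes mutated in cystic kidney disease and ciliopathies were mostly not called. Pkhd1 was the 1 of 34 that passed, and Bicc1, which encodes an RNA-binding protein, stood at 0.56 ± 0.26 (adjusted p = 0.153) in the authors' deposited table.

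In the EGF family the rises were all of ligand genes. By the authors' deposited table, 7 of its 15 members rose, 4 when adjusted over rows of at least 1 CPM, and 1 fell. All 7 that rose encode ligands. Hbegf rose by 1.21 ± 0.25, Btc by 1.49 ± 0.29 and Nrg1 by 1.77 ± 0.34 in the authors' deposited table, and the remaining 4 were Tgfa, Areg, Ereg and Epgn. The 1 that fell, Egf itself, is made in the thick limb and distal convoluted tubule, and went from 2171 CPM to 746.8 CPM, a log2 fold change of -1.54 ± 0.34 in the authors' deposited table. The receptor genes Egfr (0.27 ± 0.21), Erbb2 (-0.03 ± 0.19) and Erbb3 (0.07 ± 0.24) did not pass in the authors' deposited table.

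Among 29 Wnt ligands and antagonists 8 rose and 1 fell, 31%, where 20.2% of named rows of at least 1 CPM passed. Wnt7a, a ligand that stood below the level of rows with no signal in WT, reached 4.33 CPM in DM and 7.58 CPM in SM. Wnt9a, another ligand gene, rose by 1.94 ± 0.29 and the secreted antagonist gene Frzb by 1.99 ± 0.23 in the authors' deposited table. Of 42 TGF-beta, activin and BMP genes 16 rose and 3 fell. The activin subunit genes Inhba and Inhbb rose by 3.32 ± 0.38 and 2.65 ± 0.39 in the authors' deposited table. The ligand genes Tgfb2 and Tgfb3 rose by 1.99 ± 0.26 and 1.56 ± 0.28, and Gdf15, a stress-induced ligand gene, by 2.41 ± 0.33 in the authors' deposited table. Falls were of Bmp7, a survival factor of the nephron, at -0.83 ± 0.25, Bmp5 at -1.45 ± 0.42 and Gdf10 at -1.33 ± 0.35 in the authors' deposited table.

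In the FGF, PDGF, VEGF and HGF list 6 of 36 members rose and 7 fell. The macrophage growth factor gene Csf1 rose by 2.50 ± 0.30 in the authors' deposited table, from 13.1 CPM to 74.1 CPM. Of the endothelial receptor genes, Kdr fell by 0.68 ± 0.20 and Tek by 0.71 ± 0.19, while Flt1 (-0.44 ± 0.20) and Flt4 (0.33 ± 0.22) did not pass, in the authors' deposited table. Among 22 genes of the insulin-like growth factor axis, 3 rose and 3 fell, 27.3%, where 20.2% of named rows of at least 1 CPM passed. The binding protein gene Igfbp2 rose by 3.71 ± 0.31, and Igfbp5 fell by 1.40 ± 0.31 and the ligand gene Igf1 by 0.73 ± 0.21 in the authors' deposited table.

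Lists of genes induced by growth and stretch signals held rises and no falls. Of 24 Hippo pathway genes and YAP targets 8 rose and 0 fell, 33.3%, and 16 were not called. Of named rows of at least 1 CPM 11.7% rose. Ankrd1, a widely used YAP target, rose by 4.50 ± 0.35 and Cyr61 by 1.96 ± 0.36 in the authors' deposited table, whereas the coactivator gene Wwtr1 stood at -0.03 ± 0.21. Immediate early and AP-1 genes rose for 16 of 27 members and fell for 0, with a median of 1.05 in the authors' deposited table. Fos rose by 2.59 ± 0.38, Egr2 by 4.12 ± 0.47, Atf3 by 2.91 ± 0.39 and Myc by 1.42 ± 0.35 in the authors' deposited table. Dusp1, a phosphatase gene of the same early response, was at 0.02 ± 0.27. Of 25 Notch and Hedgehog genes 4 rose and 0 fell, 16%, with Notch3, Jag1, Gli1 and Gli3 as the rises. That share is near those of all named rows of at least 1 CPM, of which 11.7% rose and 20.2% passed in either direction.

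The cAMP pathway, which drives fluid secretion into cysts, had 4 of 40 members higher and 6 lower. This was 25%, near the 20.2% of named rows of at least 1 CPM that passed, and the list median was -0.03. The adenylyl cyclase gene Adcy7 rose by 2.17 ± 0.30 in the authors' deposited table. The phosphodiesterase genes Pde8a and Pde4d, whose products degrade cAMP, fell by 0.82 ± 0.21 and by 0.77 ± 0.22, and Pde3b rose by 0.83 ± 0.22 in the authors' deposited table. Among the prostaglandin receptors, Ptger3 fell by 1.33 ± 0.23 and Ptger4 rose by 0.87 ± 0.26 in the authors' deposited table. In the renin-angiotensin system 4 of 15 members fell and 0 rose, 26.7%. Of named rows of at least 1 CPM 20.2% passed and 8.43% fell. Those 4 were the peptidase genes Ace, Enpep and Anpep and the receptor gene Agtr1a, which stood at -0.88 ± 0.20 in the authors' deposited table.

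Interferon-inducible GTPases were high in the double mutant and low in both other groups. Guanylate-binding proteins and immunity-related GTPases are cytosolic defence proteins that act on vacuoles holding pathogens, and they are known as targets of interferon-gamma. Of 11 guanylate-binding protein genes 10 rose and 0 fell in DM against WT, with a median log2 fold change of 3.57 in the authors' deposited table. Of 13 immunity-related GTPase genes 9 rose and 0 fell, with a median of 3.06. In SM against WT, where 15.4% of named rows passed, 0 of these 24 genes did, 3 had an unadjusted p below 0.05 by edgeR in the authors' deposited table, and the medians were 0.50 and 0.25. The summed level of the guanylate-binding proteins was 66.4 CPM in WT, 98.3 CPM in SM and 719.2 CPM in DM. That of the immunity-related GTPases was 137.9 CPM in WT, 157.4 CPM in SM and 1240 CPM in DM.

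For single genes the pattern was as follows. Gbp2 stood at 8.77 CPM in WT, 18.1 CPM in SM and 284 CPM in DM, with a log2 fold change of 5.02 ± 0.93 (adjusted p = 3.60e-06) in DM relative to WT (the authors' deposited table). Igtp stood at 9.19 CPM, 10.9 CPM and 272 CPM (4.89 ± 0.95, in the authors' deposited table). Iigp1 stood at 9.62 CPM, 14.9 CPM and 314 CPM (5.03 ± 1.01, in the authors' deposited table). In each case the DM level was far above both others. The direct test is that of DM against SM, the authors' deposited table in which 18 named rows passed (0.0773%), 11 higher (0.0473%) and 7 lower (0.0301%). Of the 24 GTPase genes 5 were among them: Gbp6 at 4.86 ± 1.16 (adjusted p = 0.0357), Gbp10 at 7.99 ± 1.84, Igtp at 4.64 ± 1.06, Tgtp1 at 5.88 ± 1.27 and Tgtp2 at 4.58 ± 1.10, in that deposited table. For Gbp2 (adjusted p = 0.0714) and Iigp1 (adjusted p = 0.0714) that test was not passed. The family members are near-identical in parts, and the authors' counting could split reads between Tgtp1 and Tgtp2.

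These genes also had wide errors. The median implied SE in DM against WT was 0.80 for guanylate-binding proteins and 0.84 for immunity-related GTPases of at least 1 CPM, against 0.24 for all named rows of that level. Among rows of like level these medians lay at the 99.7th and 99.6th percentile. A wide implied SE can come from spread between libraries or from a group level near the lowest. All groups share a single fit, so the tables do not show which group or libraries spread. T and NK cells make interferon-gamma. Among genes of T, NK and B lymphocytes 13 of 42 rose, and fewer did with p-values adjusted over rows of at least 1 CPM. The part of these cells in the result was not tested. Ifng itself stood at 0.0675 CPM in WT, 0.0417 CPM in SM and 0.223 CPM in DM, and its log2 fold change of 1.72 ± 1.19 (adjusted p = 0.437) did not pass in the authors' deposited table.

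Promoters of these genes were searched for a short word of interferon-stimulated genes. The lists are of genes known to respond to interferon, so the word in their promoters gives no independent support. The interferon-stimulated response element (ISRE) core, GAAA and GAAA with any 2 bases between them, was searched on both strands in the 300 bases from 250 before to 50 after each gene's start (RefSeq, GRCm38.p6), which were at hand for 17644 named rows. It was found in 3.9% of all promoters. For rows of at least 1 CPM it was found in 3.73% of promoters, in 6.52% where the row rose and 2.88% where it fell. All 5 guanylate-binding proteins with a promoter held it, as did 7 of 9 immunity-related GTPases (77.8%) and 14 of 30 antiviral genes (46.7%). In MHC class I genes it was found in 5 of 20 (25%), and in MHC class II genes in 1 of 12 (8.33%). Stretches of 30 bases are shown for 7 of the GTPase genes and for the chemokine gene Cxcl10, on the strand of the gene, with the match in capitals.
Gbp2, chr3:142620594-142620623: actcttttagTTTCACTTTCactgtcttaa
Gbp5, chr3:142496759-142496788: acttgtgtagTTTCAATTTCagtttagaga
Igtp, chr11:58199512-58199541: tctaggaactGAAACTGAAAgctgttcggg
Irgm2, chr11:58214903-58214932: tccaggaactGAAACTGAAAgctgttcggg
Tgtp1, chr11:48992304-48992333: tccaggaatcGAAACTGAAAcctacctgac
Tgtp2, chr11:49064263-49064292: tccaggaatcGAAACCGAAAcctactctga
Gm12250, chr11:58183787-58183816: agaaatctgcTTTCAGTTTCatgttcttgg
Cxcl10, chr5:92349083-92349112: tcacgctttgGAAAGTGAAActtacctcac
In the Gbp2, Gbp5 and Gm12250 promoters the word lies on the opposite strand, so TTTC appears in place of GAAA. Igtp and Irgm2, neighbours on chromosome 11, have matches in almost the same surroundings. A match describes letters in a window and is not evidence of a bound site.

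Genes of antigen presentation rose as well. MHC class II molecules, displayed by dendritic cells, macrophages and B cells and by other cells under interferon-gamma, rose for 10 of 16 genes in DM against WT, with a median of 2.67 in the authors' deposited table. In SM against WT 5 of the 16 rose, with a median of 1.12. The summed level was 308.2 CPM in WT, 548.5 CPM in SM and 1187 CPM in DM. H2-Aa, an alpha chain, stood at 22.6 CPM, 53.9 CPM and 156 CPM in WT, SM and DM (2.79 ± 0.48, in DM relative to WT by the authors' deposited table). Cd74, the invariant chain, stood at 49.2 CPM, 129 CPM and 301 CPM (2.61 ± 0.50, in the authors' deposited table). Ciita, the master coactivator of class II genes, stood at 2.18 CPM, 6.26 CPM and 50.9 CPM (4.55 ± 0.83, in the authors' deposited table). Each of these 3 was ordered WT, SM, DM, and none passed in DM against SM, where Ciita differed by 3.02 ± 0.87 (adjusted p = 0.24) in the authors' deposited table.

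MHC class I genes, which load peptides from the cytosol in all nucleated cells, rose for 14 of 27 members in DM against WT and for 0 in SM against WT, with medians of 0.97 and 0.22 in the authors' deposited tables. In the latter, 1 of the 27 had an unadjusted p below 0.05 by edgeR. In DM against SM 0 of the 27 passed at the adjusted p, and 16 had an unadjusted p below 0.05 in the authors' deposited table from edgeR. The peptide transporter gene Tap1 stood at 8.72 CPM, 14.7 CPM and 92.2 CPM in WT, SM and DM (3.40 ± 0.68, in DM relative to WT by the authors' deposited table). Subunits of the immunoproteasome, which cuts peptides for class I, rose together, Psmb8 by 3.16 ± 0.63, Psmb9 by 3.23 ± 0.76 and Psmb10 by 1.97 ± 0.51 in the authors' deposited table. The coactivator gene Nlrc5 rose by 3.72 ± 0.81, the heavy chain gene H2-K1 by 1.19 ± 0.37 and H2-D1 by 1.13 ± 0.33 in the authors' deposited table. The light chain gene B2m stood at 0.83 ± 0.40 and did not pass (adjusted p = 0.171), nor did the chaperone genes Calr and Pdia3.

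Antiviral interferon-stimulated genes rose for 23 of 41 members and fell for 1 in DM against WT, and 7 rose in SM against WT. The medians were 1.36 and 0.57 in the authors' deposited tables. Oas2, a sensor of double-stranded RNA, rose by 4.17 ± 0.37 in the authors' deposited table, from 2.69 CPM in WT to 48.4 CPM in DM, and stood at 35 CPM in SM. Zbp1, a nucleic acid sensor gene of necroptosis, stood at 1.15 CPM in WT, 2.98 CPM in SM and 19.3 CPM in DM (4.07 ± 0.80, in the authors' deposited table). Those 2 members differ in where the SM level lies. Xaf1, a pro-apoptotic gene, passed both in DM against WT, at 2.94 ± 0.42, and in DM against SM, at 2.39 ± 0.46 (adjusted p = 8.55e-04), in the authors' deposited tables. Slfn5 was the member that fell, by 0.61 ± 0.22 in the authors' deposited table.

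Among 31 interferon receptors, kinases and transcription factors 18 rose and 1 fell. Among receptor genes, Ifngr1 stood at 0.73 ± 0.19, Ifngr2 at 0.52 ± 0.18, Ifnar1 at 0.50 ± 0.18 and Ifnlr1, of the interferon-lambda receptor, at 1.19 ± 0.27 in the authors' deposited table. The interferon-induced factor gene Irf1 rose by 2.47 ± 0.57 and Batf2 by 3.58 ± 0.89 in the authors' deposited table. Stat3, which responds to interleukin-6 family cytokines, rose by 1.20 ± 0.20 in DM, and its feedback inhibitor gene Socs3 by 3.48 ± 0.32 in the authors' deposited table. For Socs3 the SM level of 34.3 CPM lay near the DM level of 48.6 CPM, with 4.36 CPM in WT. The gamma-activated site TTCNNNGAA, the STAT word, was found in 9.11% of all promoters (both strands) and in 7 of 27 of this list (25.9%). The Irf1 promoter is shown for it, with the match in capitals.
Irf1, chr11:53769914-53769943: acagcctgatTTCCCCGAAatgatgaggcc

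**Figure D3:**
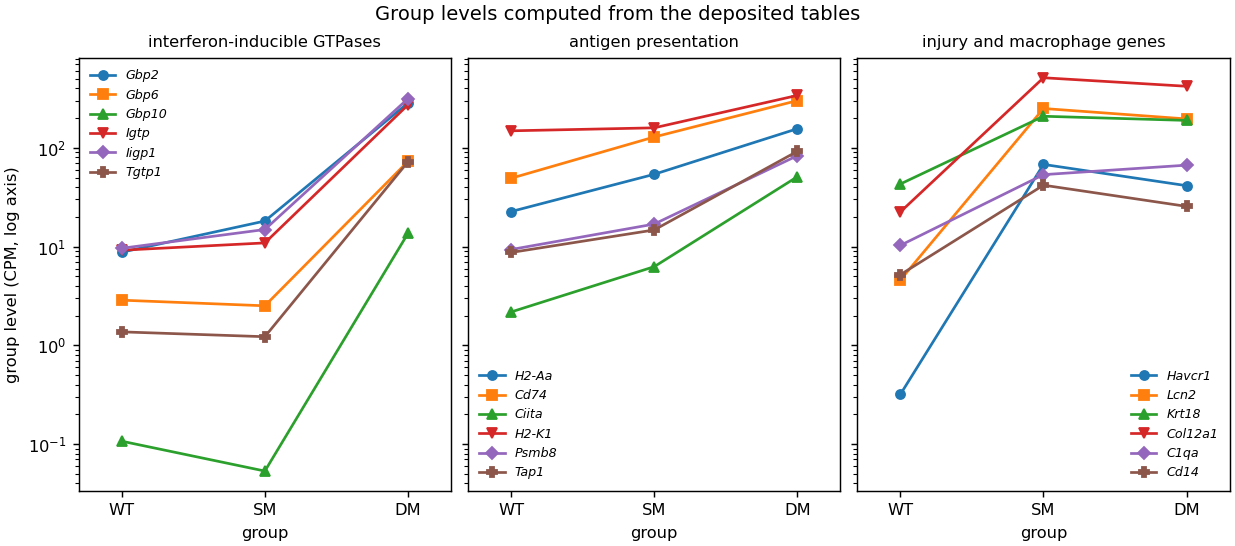
Group levels in CPM (y axis, log scale) in WT, SM and DM (x axis) for 6 genes each of the interferon-inducible GTPases, antigen presentation, and injury and macrophage genes, computed from the authors' deposited tables without an error. The GTPases stand apart in DM (Igtp at 9.19, 10.9 and 272 CPM), whereas injury genes are high in both mutant groups (Lcn2 at 4.59, 250 and 196 CPM).

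Chemokines that attract activated T cells also rose. Cxcl10, a ligand of CXCR3, stood at 1.51 CPM in WT, 6.85 CPM in SM and 50 CPM in DM (5.05 ± 0.82, in the authors' deposited table), and Cxcl11 at 0.552, 1.21 and 10.3 CPM (4.22 ± 0.82). Cxcl9, another ligand of that receptor, was at 2.05 ± 0.87 and did not pass. Of 21 CXC genes 10 rose and 1 fell. Neutrophil attractants rose too, with Cxcl1 at 4.32 ± 0.45 in the authors' deposited table, whereas Cxcl12, which guides progenitor and stromal cells, fell by 1.11 ± 0.22. Of 36 CC genes 17 rose and 0 fell. The monocyte attractant genes Ccl2 and Ccl12 rose by 3.58 ± 0.59 and 4.99 ± 0.58, Ccl8 by 5.54 ± 0.70 and the receptor gene Ccr2 by 2.44 ± 0.35 in the authors' deposited table.

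Macrophage and dendritic cell genes rose for 30 of 40 members and fell for 0, with a median of 1.98 in the authors' deposited table. The median in SM against WT was 2.02, with 30 higher and 1 lower, and 0 passed in DM against SM, where 5 had an unadjusted p below 0.05 in the authors' deposited table from edgeR. C1qa, a chain of complement C1q made by macrophages, stood at 10.3 CPM in WT, 53.5 CPM in SM and 66.8 CPM in DM (2.70 ± 0.25, in the authors' deposited table). The receptor gene Fcgr1 rose by 3.56 ± 0.48, Mrc1, the mannose receptor, by 2.10 ± 0.22 and Lyz2, a lysozyme, by 2.46 ± 0.28 in the authors' deposited table. Csf1r, the receptor gene for Csf1, stood at 0.41 ± 0.20 and did not pass. The macrophage medians of the mutant groups share the WT libraries.

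T, NK and B lymphocyte genes were at low levels and rose for 13 of 42 members, and for 3 with p-values adjusted over rows of at least 1 CPM, which 10 members reach. In SM against WT 4 rose, and in DM against SM 0 passed, with 10 at an unadjusted p below 0.05 in the authors' deposited table from edgeR. Their summed level was 25.6 CPM in WT, 33.4 CPM in SM and 59.9 CPM in DM. Gzmb, a granzyme of cytotoxic cells, stood at 0.116 CPM, 0.157 CPM and 2.9 CPM (4.65 ± 1.01, in DM relative to WT by the authors' deposited table). Cd8b1, a coreceptor chain of cytotoxic T cells, stood at 0.0505 CPM, 0.266 CPM and 1.29 CPM, and Nkg7, a gene of cytotoxic granules, at 0.139 CPM, 0.204 CPM and 1.45 CPM. The WT level of Cd8b1 is at that of rows with no signal, so no fold is given. The second CD8 chain gene, Cd8a, stood at -0.24 ± 0.57 in the authors' deposited table, and Cd4 was at 0.40 ± 0.37. Cd274, the checkpoint ligand PD-L1, stood at 4.36 CPM in WT, 3.88 CPM in SM and 18.1 CPM in DM (2.05 ± 0.68, adjusted p = 0.0247, in the authors' deposited table). In DM against SM Cd274 differed by 2.22 ± 0.76 and did not pass (adjusted p = 0.647) in the authors' deposited table. Of 13 neutrophil genes 1 rose and 2 fell, 23.1%, near the 20.2% of named rows of at least 1 CPM that passed. Only 5 of the 13 reached 1 CPM.

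Interleukin-1 family genes rose for 13 of 23 members and fell for 1. Il1rn, the receptor antagonist, rose by 3.37 ± 0.52 and Il1r1 by 1.76 ± 0.21 in the authors' deposited table. Inflammasome genes were among them, with Nlrp3 at 2.16 ± 0.44 and Casp1 at 1.98 ± 0.51 in the authors' deposited table, and the alarmin gene Il33 fell by 0.74 ± 0.24. In the TNF superfamilies 10 of 44 rose and 2 fell, 27.3%, where 20.2% of named rows of at least 1 CPM passed. Their rises were led by Tnfsf8, the CD30 ligand, at 5.33 ± 0.62 in the authors' deposited table. Complement genes rose for 14 of 35 members, including C3, the central component, by 3.14 ± 0.61 in the authors' deposited table, from 41.1 CPM to 361 CPM. The 4 that fell, Hc, C8a, C8b and Mbl2, are known as products of liver.

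**Figure D4:**
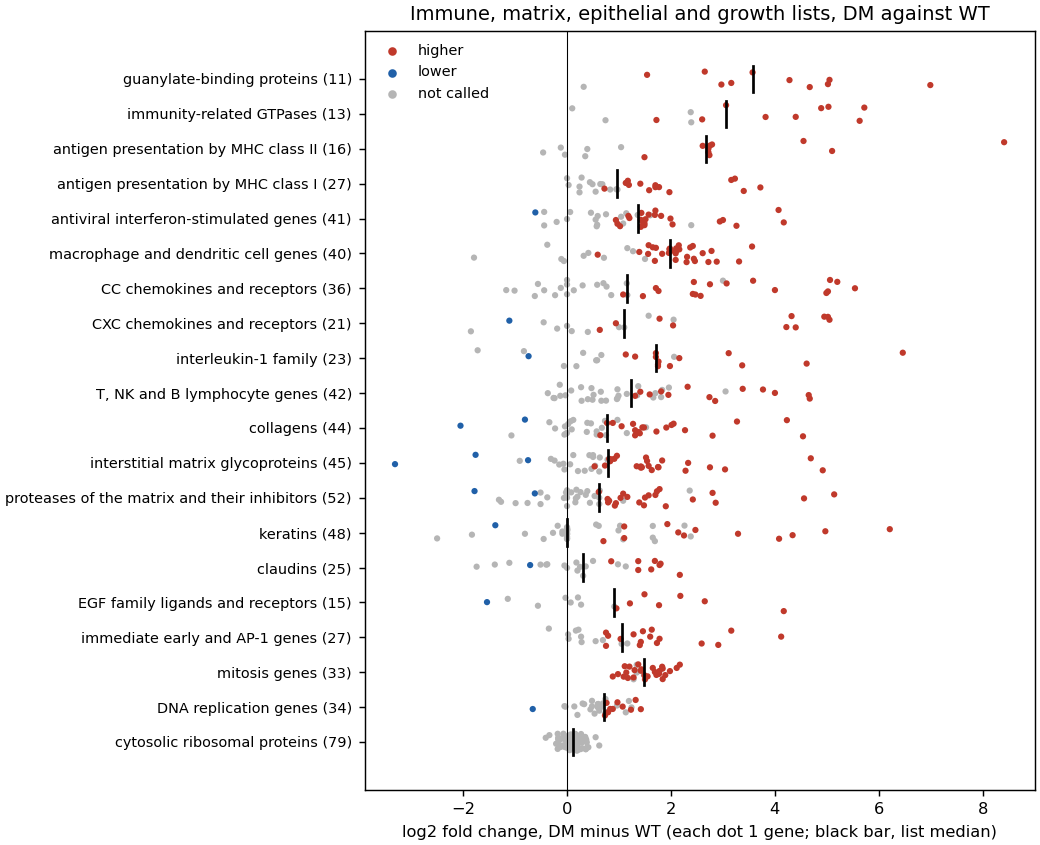
Each dot is 1 gene at its log2 fold change in DM against WT (x axis, from the authors' deposited table), with red for rises, blue for falls and grey for genes not called, and a black bar for the list median. Rows are 20 gene lists with the number of measured genes in brackets. Guanylate-binding proteins (median 3.57) lie farthest right and cytosolic ribosomal proteins (0.11) stay near 0 with 0 of 79 called.

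Of 44 collagen genes 20 rose and 2 fell. Fibrillar collagens were among them, Col1a1 by 2.01 ± 0.32 and Col3a1 by 1.91 ± 0.34 in the authors' deposited table. Col3a1 went from 302.5 CPM to 1136 CPM. The basement membrane collagens Col4a1 and Col4a2 stood at 0.73 ± 0.29 and 0.67 ± 0.28 and did not pass (adjusted p = 0.0839 and 0.0918 in the authors' deposited table). Interstitial glycoproteins rose for 24 of 45 members and fell for 3, with Mfap4, of elastic fibres, at 3.04 ± 0.37 and the fibroblast product Postn at 2.28 ± 0.33 in the authors' deposited table. Of 15 laminin and nidogen genes 5 rose, 8 when adjusted over rows of at least 1 CPM, and 1 fell.

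Matrix proteases and their inhibitors rose for 22 of 52 members and fell for 2. Mmp7, a protease of injured tubules, went from 0.0894 CPM to 3.16 CPM (5.14 ± 0.47, in the authors' deposited table). Timp1, an inhibitor of metalloproteases, went from 0.624 CPM to 14.7 CPM (4.56 ± 0.49, in the authors' deposited table). Reck, a membrane inhibitor of metalloproteases, rose by 0.92 ± 0.19 in the authors' deposited table, whereas Mmp9 fell by 1.78 ± 0.56. Of 19 pericyte and myofibroblast genes 7 rose and 0 fell, 36.8%, where 11.7% of named rows of at least 1 CPM rose. Acta2, smooth muscle actin, rose by 1.84 ± 0.35 and Tagln by 1.88 ± 0.31 in the authors' deposited table, while the receptor genes of resident stroma, Pdgfrb (-0.22 ± 0.22) and Pdgfra (-0.22 ± 0.22), did not pass. Integrins rose for 9 of 26 members (34.6%) and fell for 0, with Itgb4 of hemidesmosomes at 2.20 ± 0.28 in the authors' deposited table.

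Most mitosis genes rose, within a narrow range. Of 33 members 28 rose and 0 fell, and the values of all 33 lay between 0.88 and 2.17 with a median of 1.48 in the authors' deposited table. Top2a, which untangles DNA, went from 13.1 CPM to 51.6 CPM (1.98 ± 0.49, in the authors' deposited table). Anln, of the cleavage furrow, rose by 2.17 ± 0.43 in the authors' deposited table. The proliferation marker gene Mki67 stood at 1.48 ± 0.55 and just missed the threshold (adjusted p = 0.0541 in the authors' deposited table). Of 34 replication genes 10 rose and 1 fell, with a median of 0.71, and Pcna stood at 0.20 ± 0.26 in the authors' deposited table. The CCAAT word was found on either strand in 20 of 27 mitosis promoters (74.1%) and 17 of 27 replication promoters (63%), and in 42.3% of all promoters. For rows of at least 1 CPM it was in 40.9% of promoters where the row rose and 43.9% where it fell. It was more frequent still in clustered histone genes (84.7%) and cholesterol and fatty acid synthesis (83.3%), so it is not particular to genes that rose. Windows are shown for 4 mitosis genes with the match in capitals (ATTGG where it lies on the opposite strand).
Top2a, chr11:99024230-99024259: agcgagtcggtgATTGGttcctctgatttg
Ccnb1, chr13:100786536-100786565: gccacgaactggCCAATgaggagcgagcgg
Cdk1, chr10:69352943-69352972: acgtgcaatcggATTGGcggatcccgggag
Bub1, chr2:127831884-127831913: ccgcagcggagaCCAATagtcaggcgcgct

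Of 32 cell cycle inhibitors and p53 targets 13 rose and 1 fell. The inhibitor genes Cdkn1b (0.27 ± 0.29), Cdkn2c (0.26 ± 0.25) and Cdkn2d (0.29 ± 0.32) did not pass in the authors' deposited table. Cdkn1a, the p53 target p21, rose by 1.57 ± 0.29 in the authors' deposited table, from 35.3 CPM to 104 CPM. Cdkn2a, the senescence gene of p16 and p19, reached 1.38 CPM in DM from a WT level under that of rows with no signal. Eda2r, another p53 target, rose by 2.99 ± 0.41, and Cdkn1c fell by 0.81 ± 0.23 in the authors' deposited table. Among 33 cell death genes 13 rose and 0 fell. Those of necroptosis and pyroptosis included Ripk3 at 1.73 ± 0.35, Mlkl at 1.66 ± 0.47 and Gsdmd at 1.13 ± 0.40 in the authors' deposited table. Of the clustered histone genes, Hist1h1c fell by 1.36 ± 0.31 and Hist1h2bc by 1.54 ± 0.22 in the authors' deposited table. In all, 5 of 64 clustered histone rows fell and 1 rose, 9.38%, where 14.6% of all named rows passed.

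Transport genes of the nephron fell more often than they rose in most of the lists, and those of principal cells rose more often than they fell. Of 41 genes of organic anion and cation transporters 18 fell and 1 rose. Slc22a6, the basolateral transporter OAT1, went from 397.5 CPM to 140.9 CPM (-1.50 ± 0.22, in the authors' deposited table). Of 23 sugar and related cotransporters 7 fell and 2 rose, and Slc5a2, the glucose cotransporter SGLT2, stood at -1.33 ± 0.28 in the authors' deposited table. Amino acid transporters split, with 12 of 51 lower and 8 higher. Falls were led by apical and basolateral carriers of proximal reabsorption, Slc6a19 at -1.87 ± 0.33 and Slc7a8 at -1.43 ± 0.30, and rises included the cationic carrier gene Slc7a1 at 1.20 ± 0.20 and Slc7a5, which feeds growing cells, at 1.01 ± 0.28 in the authors' deposited table.

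Of 23 genes of phosphate handling and its hormonal control 8 fell and 3 rose. Slc34a1, the main phosphate cotransporter, went from 5030 CPM to 1995 CPM (-1.33 ± 0.36, in the authors' deposited table). Kl, the FGF23 coreceptor Klotho, fell by 1.12 ± 0.29 and the vitamin D receptor gene Vdr by 0.88 ± 0.28 in the authors' deposited table. Rises were of Slc34a2, the cotransporter gene of lung and gut, at 1.49 ± 0.28, and the calcium channel genes Trpv5 at 0.77 ± 0.19 and Trpv6 at 2.87 ± 0.30 in the authors' deposited table. Of 19 genes of megalin endocytosis 5 fell and 0 rose, 26.3%, with a median of -0.18. Of named rows of at least 1 CPM 20.2% passed and 8.43% fell. The falls included the receptor genes Lrp2 and Cubn at -0.90 ± 0.29 and -0.78 ± 0.23 in the authors' deposited table. As a check of the tissue, Lrp2 (1893 CPM), the thick limb gene Umod (3553 CPM), the collecting duct water channel Aqp2 (279.6 CPM) and the podocyte gene Nphs1 (48.2 CPM) were all present in WT.

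Loop of Henle and distal convoluted tubule genes fell for 19 of 30 members and rose for 2. Calb1, the calcium buffer of the distal tubule, went from 619.5 CPM to 168.7 CPM (-1.88 ± 0.39, in the authors' deposited table). Pvalb, of the early distal convoluted tubule, stood at -2.22 ± 0.38 and the thiazide-sensitive cotransporter gene Slc12a3 at -1.01 ± 0.28 in the authors' deposited table. For the thick limb, Umod stood at -0.25 ± 0.33 and Slc12a1 at -0.72 ± 0.32 in the authors' deposited table, and neither passed. Of 23 intercalated cell genes 11 fell and 0 rose, and Car4, a carbonic anhydrase, stood at -1.52 ± 0.22 in the authors' deposited table.

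Of 24 principal cell genes, 9 rose and 2 fell. The basolateral water channel gene Aqp4 rose by 1.30 ± 0.22 and Hsd11b2, which protects the aldosterone receptor from cortisol-type steroids, by 0.85 ± 0.22 in the authors' deposited table. The sodium channel gene Scnn1g rose by 0.65 ± 0.20, but Scnn1a stood at 0.01 ± 0.25 and Aqp2 at -0.06 ± 0.38 in the authors' deposited table. Of the 9 rises, 3 were the keratin genes Krt8, Krt18 and Krt19 already counted above, and Elf3 is shared with the adhesion list.

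**Figure D5:**
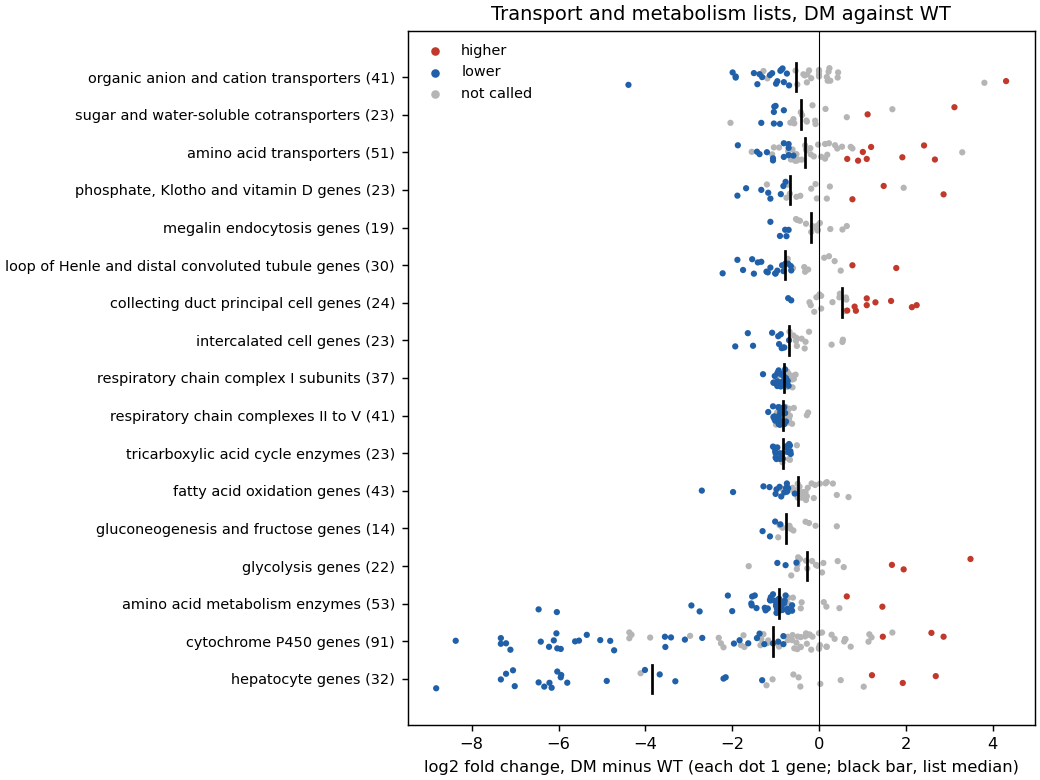
Each dot is 1 gene at its log2 fold change in DM against WT (x axis, from the authors' deposited table), with red for rises, blue for falls and grey for genes not called, and a black bar for the list median. Rows are 17 lists with the number of measured genes in brackets. Respiratory chain and tricarboxylic acid cycle genes sit in a narrow band (medians -0.81 to -0.84), whereas cytochrome P450 and hepatocyte genes spread farthest left, where DM levels under that of rows with no signal leave the size of the fall unmeasured.

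Many mitochondrial energy genes fell, within a narrow range of values. Of 37 complex I subunit genes 25 fell, and all 37 values lay between -1.29 and -0.54 in the authors' deposited table. Of 41 genes of complexes II to V 22 fell, with values between -1.17 and -0.25, and of 23 tricarboxylic acid cycle genes 19 fell, with values between -1.06 and -0.51. None of the 3 lists held a rise. Ndufb10, a membrane-arm subunit, stood at -1.29 ± 0.24 and Cox6a1 of complex IV at -1.17 ± 0.27 in the authors' deposited table. Regulators of these genes were lower too, with Ppargc1b at -0.97 ± 0.27 and Esrra at -0.79 ± 0.29, while Ppargc1a (-0.65 ± 0.27) and Ppara (-0.52 ± 0.24) did not pass in the authors' deposited table. Over the same libraries 0 of 79 cytosolic ribosomal protein genes passed by edgeR, 0 also at an unadjusted p below 0.05, with values between -0.41 and 0.62.

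Genes of fuel metabolism differed by route. Of 43 fatty acid oxidation genes 15 fell and 0 rose, with Acsm2, a medium-chain acyl-CoA synthetase, at -1.98 ± 0.32 and Acox2 at -1.28 ± 0.21 in the authors' deposited table. In gluconeogenesis and fructose use 4 of 14 fell, including Fbp1 at -1.30 ± 0.30, and Pck1 stood at -0.91 ± 0.35 and did not pass (adjusted p = 0.0653 in the authors' deposited table). Glycolysis had 3 of 22 members higher and 3 lower, 27.3%, where 20.2% of named rows of at least 1 CPM passed. Its rises were Hk3, a hexokinase of myeloid cells, at 3.49 ± 0.68, Eno2 at 1.68 ± 0.33 and the lactate exporter gene Slc16a3 at 1.95 ± 0.35, and Ldhb fell by 0.96 ± 0.28 in the authors' deposited table. Of 53 enzymes of amino acid metabolism 41 fell and 2 rose. Gatm, the first enzyme of creatine synthesis, went from 1712 CPM to 426.8 CPM and fell, and Miox, which opens the ring of inositol, from 1924 CPM to 656.2 CPM (-1.55 ± 0.33). The rises were Psat1, of serine synthesis, at 0.64 ± 0.22 and Pycr1, of proline synthesis, at 1.46 ± 0.40 in the authors' deposited table.

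Detoxification genes also fell, and here liver transcripts moved alongside. Of 91 cytochrome P450 genes 32 fell (10 when adjusted over rows of at least 1 CPM) and 3 rose, and of 62 conjugation enzymes 14 fell and 3 rose. Those of kidney level included Cyp2d26 (495 CPM in WT, -1.06 ± 0.29), Cyp2j5 (-0.82 ± 0.29) and the glucuronosyltransferase gene Ugt1a2 (-1.17 ± 0.29) in the authors' deposited table. Others were at a few CPM or below in WT and lower still in DM, such as Cyp2c70, Cyp3a11 and Ugt2b38. Hepatocyte genes fell for 20 of 32 members and rose for 3, and 12 fell with p-values adjusted over rows of at least 1 CPM. Their median was -3.84 over all members, including those under the level of rows with no signal in DM, and -1.73 over the 22 members of at least 1 CPM, whose median implied SE was 0.65, in the authors' deposited table. Alb, albumin, stood at 132 CPM in WT, 0.328 CPM in SM and 1.03 CPM in DM, Ahsg at 27.7, 0.0818 and 0.209 CPM, and Apoa1 at 12.1, 0.514 and 0.409 CPM. The summed level of the hepatocyte list was 459.7 CPM in WT, 352.5 CPM in SM and 382.3 CPM in DM. The members that rose, the fibrinogen chain genes Fga (27.9 to 106 CPM) and Fgg (6.98 to 45 CPM) and Serpina1a (16 to 37.3 CPM), are part of those sums. The part of liver RNA in the falls of low P450, conjugation, complement, serpin, and organic anion and cation transporter genes was not tested. Nor was its part in the falls of Hpd, Bhmt, Tat, Tdo2 and Fabp1. Ugt2b38, Pzp, Serpina3k, Ces1c and Cps1 also fell, from WT levels between 2.83 CPM for Ces1c and 7.04 CPM for Serpina3k to 0.0949 CPM or less, and for Ugt2b38 and Ces1c the DM level is under that of rows with no signal.

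Steroid enzymes of the adrenal gland, Cyp11b1, Cyp21a1 and Cyp17a1, fell from WT levels of 0.499, 0.695 and 0.551 CPM, and being below 1 CPM were not tested with the adjustment over higher rows. Fat genes were lower in value but did not pass, with Adipoq at 17.8 CPM in WT, 11.2 CPM in SM and 11.7 CPM in DM. Prss2, a digestive enzyme gene of pancreas, was at the level of rows with no signal in every group. Sex-linked genes did not pass, with a median implied SE of 1.76. Xist stood at 812 CPM in WT, 686 CPM in SM and 398 CPM in DM and Ddx3y at 16.7, 25 and 48.1 CPM, so the make-up of the groups by sex may differ and its part in the results was not tested.

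Antioxidant genes had 10 of 34 members lower and 2 higher. Cat, catalase, fell by 1.14 ± 0.29 and mitochondrial Sod2 fell too, while Hmox1, haem oxygenase, rose by 1.01 ± 0.23 in the authors' deposited table. Of 29 endoplasmic reticulum stress genes 5 rose and 0 fell, 17.2%. Of named rows of at least 1 CPM 11.7% rose and 20.2% passed in either direction. Endothelial genes had 3 of 25 higher and 4 lower, 28%, where 20.2% of named rows of at least 1 CPM passed. Emcn, a capillary sialomucin, fell by 0.95 ± 0.23, and Lyve1, of lymphatic vessels and some macrophages, rose by 1.97 ± 0.41 in the authors' deposited table. Of 20 podocyte genes 5 fell and 2 rose, with Nphs1, the slit protein nephrin, at -0.95 ± 0.22 in the authors' deposited table.

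Genes reported elsewhere as miR-21 targets rose for 11 of 30 members and fell for 1 in DM against WT, and rose for 10 and fell for 1 in SM, by the authors' deposited tables. Of named rows of at least 1 CPM 11.7% rose and 8.43% fell in DM against WT. In DM against SM, which differ in the miR-21 genotype, 0 of the 30 passed, the median was 0.00 and 1 had an unadjusted p below 0.05 in the authors' deposited table from edgeR. Only 0.0773% of all named rows passed there, so 0 of 30 does not set these genes apart from others. Tpm1, tropomyosin, stood at 200 CPM in WT, 681 CPM in SM and 563 CPM in DM (1.49 ± 0.24, in DM relative to WT by the authors' deposited table). Among members not called, Timp3, an inhibitor of metalloproteases, was at -0.38 ± 0.27 in the authors' deposited table. Ppara and Mpv17l, metabolic members, stood at -0.52 ± 0.24 and -1.23 ± 0.33, and Mpv17l was the member that fell.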

How the data were processed

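RNA was measured in 3 DM, 4 WT and 3 SM libraries of whole mouse kidney, grouped by genotype label, each with its own animal number. Per the labels' protocols, frozen kidneys were extracted with a miRNeasy kit and libraries made with a stranded total RNA kit. Tools listed, without roles, in the submitters' processing notes are edgeR 3.2.4, featureCounts, Subread 1.4.6, Cufflinks, TopHat2 2.0.12 and bcl2fastq 1.8.4, with mm10 as the build. The authors deposited 3 comparison tables. Per the file headers, the columns are the likelihood ratio score, raw and adjusted p-values, the mean log2 CPM and the log2 fold change of each row. Checked on the files, deposited p-values follow from the scores by the chi-square distribution, adjusted ones by Benjamini-Hochberg over 30431 rows, and the tables are contrasts of a single fit. The files hold no counts, so no count test was run and the authors' adjusted p below 0.05 was used. Depth per library is unknown, so no counting interval is given.

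Computed here (Python 3.11.15, pandas 2.3.3, scipy 1.17.1) were group levels, from the average and fold changes weighted by library number, and the implied SE, the absolute log2 fold change over the root of the score. The implied SE is approximate and unreliable near the lowest level. Its arithmetic was checked on simulated data built from the same formula. That check does not show how close the implied SE is to the error of the authors' fit. The 81 gene lists, with 2365 measured members, and the genes described were chosen with earlier results of these data known, so list counts are descriptions. Genes named are the perturbed loci, the 15 largest rises and falls of at least 1 CPM, the 10 highest scores in each direction, and in each list the largest changes, exceptions and highest genes not called; any list member may be named for its role. Promoters and miRNA sequences are from RefSeq on GRCm38.p6, the assembly of mm10, which matched 23126 of 23276 named rows by symbol. Alternatives were another threshold, a minimum fold, a filter on low levels and centring on the median. Some genes are not reported here.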

Additional observations from a re-analysis of the deposited data

Results flagged for a closer look

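For 18 named genes the change from WT differed between DM and SM, by the authors' deposited table of DM against SM (edgeR, adjusted p below 0.05, 3 libraries each). Positive values are higher in DM, as log2 fold changes in that deposited table. Among those higher in DM were Gbp10 (7.99), Gm4841 (6.02), Tgtp1 (5.88), Gbp6 (4.86), Serpina3f (4.65), Igtp (4.64), Tgtp2 (4.58) and Xaf1 (2.39). Also higher were 3110035E14Rik (4.06), Gm15698 (3.87) and AA465934 (3.14), a long noncoding RNA gene. Lower in DM were Epx (-5.79) and Lpo (-4.28), neighbouring peroxidase genes on chromosome 11, 1700007B14Rik (-4.72), Trpv3 (-4.49), Gm8615 (-4.14), Pcdhgb8 (-2.28) and Adh7 (-1.67). For Epx, 1700007B14Rik and Trpv3 the DM level, and for 3110035E14Rik the SM level, is under that of rows with no signal, so these fitted values do not measure the size of the difference. Lpo stood at 0.866 CPM in WT, 2.66 CPM in SM and 0.137 CPM in DM. Adh7 stood at 2.13 CPM in WT, 25.2 CPM in SM and 7.91 CPM in DM, and passed as a rise in both comparisons with WT. Of the 18, 4 lie within 5 Mb of the miR-21 hairpin on chromosome 11, among 146 named rows there, where 0.0773% of all named rows passed.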

How the results depend on the processing

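The counts of genes that rose and fell depended on the threshold: at an adjusted p below 0.01, 804 named rows fell in DM against WT, and with at least a 2-fold change 661 fell. Adjusting over the named rows of at least 1 CPM gave 11 calls in DM against SM. Under that filter, rises numbered 4 in the EGF family, 3 among lymphocyte genes, 8 among laminins and nidogens and 4 among long noncoding RNAs, and falls numbered 1 among neutrophil genes, 10 among cytochrome P450 genes, 12 among hepatocyte genes and 0 among adrenal, fat, muscle and pancreas genes. By construction the filter removes members below 1 CPM and lowers the adjusted p of the rest. It kept 73 of 81 lists within 1.5 times their count, and 10 single genes newly passed, among them Mki67, Atp5b, Pck1 and Ifitm3. Centring on the median (a shift of 0.01) kept all 81 lists and all 532 named genes on their side of the threshold. None of these could test the directions. They reuse the same fold changes, and the smallest called change among rows of at least 1 CPM, 0.49, exceeds the centring shift. Leaving out a replicate was not run because the tables hold no value per library. No paired analysis was possible because each library has its own animal number and the tables carry none. Genes near the lowest level cannot show differences.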

Other observations

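Rises at low level included 4 genes known from motile cilia, chosen after their values were seen and not counted against a list. Foxj1, the master regulator of motile ciliogenesis, stood at 0.615 CPM in WT, 5.61 CPM in SM and 7.12 CPM in DM, with a log2 fold change of 3.53 ± 0.39 in DM relative to WT (the authors' deposited table). Gmnc, which acts upstream of multiciliation, rose by 2.63 ± 0.70, Wdr52 by 3.53 ± 0.38 and Ttll6, a tubulin glutamylase gene, by 3.42 ± 0.45 in the authors' deposited table. None of the 4 passed in DM against SM in the authors' deposited table.

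By the authors' deposited table, of 615 microRNA gene rows 6 rose and 1 fell, 1.14%, where 28 of the 615 rows reached 1 CPM. Mir31 stood at 0.646 CPM in WT, 2.37 CPM in SM and 2.87 CPM in DM (2.15 ± 0.37, in the authors' deposited table), and Mir34a, a p53 target, rose by 0.90 ± 0.32 (adjusted p = 0.0352). The others were Mir296, Mir9-2, Mir1941 and Mir5107, which rose, and Mir1950, which fell. These rows were measured in a total RNA library and may count reads of longer host transcripts.

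Among genes of neurons, Elavl4, a neuronal RNA-binding protein gene, reached 2.12 CPM in DM, and Tubb3, a neuronal tubulin, went from 0.134 CPM to 1.82 CPM (3.77 ± 0.68, in the authors' deposited table). Of 23 genes of neurons and neuroendocrine cells 6 rose and 4 fell.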
